A study of Mus musculus with 5 samples.

Results

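The RNA-binding proteins Lin28a, Lin28b and Trim71, the 3 IGF2 mRNA-binding proteins Igf2bp1, Igf2bp2 and Igf2bp3, and the DNA-binding proteins Hmga2 and Arid3b are 8 genes of the heterochronic pathway, which times development. They were taken by gene symbol from the 23284 gene rows of the count tables. All 8 were among the 12703 genes expressed highly enough to be tested, with a CPM above 1 in at least 2 libraries. CPM is the reads of a gene scaled to the total reads on genes of its library. The CPM values of genes below also use edgeR's TMM factors, which this filter did not. The genes were chosen by the difference between EpoR-null and control libraries, with the large deficit of Trim71 already known, so the fold changes and adjusted p-values of the 8 genes describe these libraries and were not read as independent evidence.

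The libraries were made from polyA RNA of whole neural tubes, the tissue that forms the brain and spinal cord, dissected from 5 mouse embryos labelled as embryonic day 8.5, while the study's methods give a slightly later age. EpoR encodes the erythropoietin receptor, and 2 embryos lacked it on both alleles (EpoR -/-, called EpoR-null), 1 carried 1 deleted allele (heterozygote) and 2 were wild type, the last 3 being the controls. The embryos lacked or carried the receptor in every tissue, not only in neural cells, and whole tubes were sequenced without sorting. Fewer cells of a type and less RNA per cell therefore cannot be told apart in any value below. The paper describes the controls as littermates of the EpoR-null embryos, without saying which embryos shared a litter. Whether the 2 EpoR-null embryos shared a litter is not given in the sources used here, so p-values measure only the spread between these libraries.

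In nematodes and mammals, the heterochronic pathway turns on a switch between let-7, a microRNA that accumulates as cells differentiate, and proteins that keep cells in an early state. LIN28 proteins bind the let-7 precursor and block its maturation, and TRIM71 (LIN41) represses mRNAs and is itself a classical let-7 target. The early neural tube expresses these genes while its neuroepithelial progenitors still divide, and loss of Trim71 in mice leaves the cranial neural tube open.

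The switch can be read in sequence, since let-7 recognises its targets through its seed, bases 2 to 8 of the mature strand. Mature mouse strands from RefSeq (GRCm38.p6) are shown with the seed in capitals, first 3 of the 9 mature miRNAs that share the let-7 seed and then miR-125b, the mammalian relative of lin-4, the other microRNA of the pathway.

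mmu-let-7a-5p: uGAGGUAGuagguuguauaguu

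mmu-let-7d-5p: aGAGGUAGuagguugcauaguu

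mmu-let-7g-5p: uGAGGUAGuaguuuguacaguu

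mmu-miR-125b-5p: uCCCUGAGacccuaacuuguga

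A 3′ UTR was searched on its sense strand for CTACCTC, the 7 bases that pair with this seed, and for the same letters followed by A, an 8-base match. In the GENCODE M21 transcripts with the longest 3′ UTR (GRCm38), all 8 genes held at least 1 of the 7-base matches, against 9.34% of the 19854 genes of the count tables with an annotated 3′ UTR, and 7 of the 8 held an 8-base match, against 3.19%. The 3′ UTRs of the 8 genes ran from 1784 to 6337 bases, longer than the median of 1000 bases, and of all 3′ UTRs of at least 1784 bases 19.2% held a 7-base match. Trim71, Lin28b, Igf2bp1 and Hmga2 each held 4 matches, a number reached or passed by 12 genes in all. Lin28a held 2 matches, and Igf2bp2, Igf2bp3 and Arid3b held 1 each. Since these genes are textbook let-7 targets, the matches describe the family and were not a result of the sequencing.

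Trim71 was the 1 member with 4 matches that were all of the 8-base kind. They are shown because Trim71 carries the largest difference of the 8 genes, and the single matches of Lin28a, Lin28b, Igf2bp1, Hmga2 and Arid3b nearest to the stop codon are shown for comparison, with the bases that pair with the seed (and the A after them) in capitals.

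Trim71 match 1: acattgcctaagtcCTACCTCA

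Trim71 match 2: gtgataatttctatCTACCTCA

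Trim71 match 3: ttagtatggattttCTACCTCA

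Trim71 match 4: tggcaaaaagttgtCTACCTCA

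Lin28a match 1: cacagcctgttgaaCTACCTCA

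Lin28b match 1: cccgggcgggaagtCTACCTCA

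Igf2bp1 match 1: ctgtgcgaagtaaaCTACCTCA

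Hmga2 match 1: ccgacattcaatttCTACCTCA

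Arid3b match 1: atttcaataaagctCTACCTCt

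The Trim71 windows lie on the minus strand of chromosome 9, at chr9:114512472-114512493, chr9:114512376-114512397, chr9:114509047-114509068 and chr9:114509021-114509042. The first pair began at bases 166 and 262 of the 5512-base 3′ UTR and the second pair at bases 3591 and 3617, so that the members of the second pair were close neighbours. The windows of the other genes lie at chr4:134005189-134005210 (Lin28a), chr10:45381022-45381043 (Lin28b), chr11:95961778-95961799 (Igf2bp1), chr10:120364224-120364245 (Hmga2) and chr9:57790361-57790382 (Arid3b), all on the minus strand and all in the 3′ UTR. A search for CTCAGGG, the 7 bases that pair with the miR-125 seed, found matches in 5 of the 8 genes, with 2 in Arid3b and 1 each in Trim71, Lin28a, Lin28b and Igf2bp3, against 13.6% of all 3′ UTRs with at least 1. No such letters were found in the 3′ UTRs of Hmga2, Igf2bp1 and Igf2bp2.

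**Figure D1:**
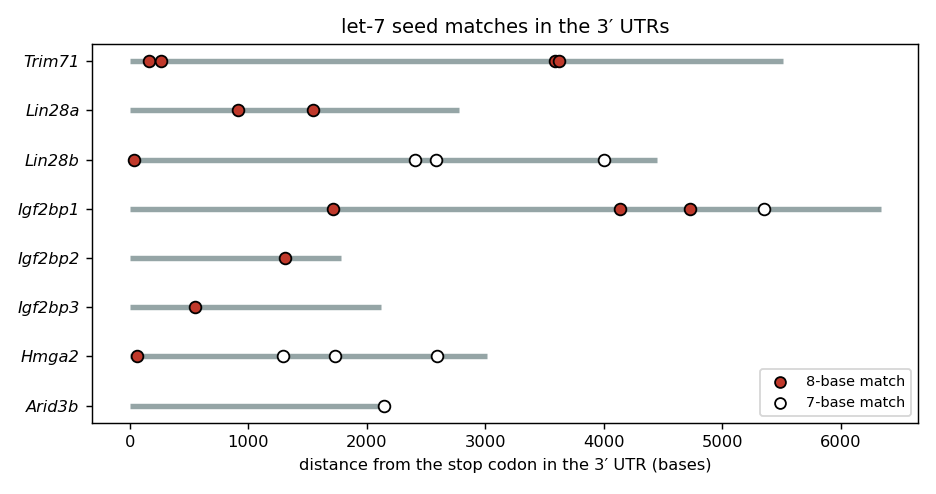
Matches to the let-7 seed along the 3′ UTR of each of the 8 genes, with distance from the stop codon in bases on the horizontal axis, each grey line as long as the 3′ UTR, filled circles for 8-base matches and open circles for 7-base matches. All 4 matches of Trim71 are of the 8-base kind, whereas 3 of the 4 matches in Lin28b and in Hmga2 are of the 7-base kind.

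The microRNAs themselves were not measured in these polyA libraries. The count tables held 18 rows for precursors of the let-7, miR-98, miR-125, miR-99 and miR-100 families, 12 of them without a read in any library. The summed reads of the 18 rows were 12 and 8 in the wild type libraries, 9 in the heterozygote and 9 in each EpoR-null library, with at most 10 reads on 1 row in 1 library. No row passed the filter, and let-7 levels could not be compared at this depth.

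The reads on genes numbered 23014710 to 41169218 per control library, and the EpoR-null libraries 1 and 2 held 19316126 and 30378879. Markers of neural tube progenitors (Sox1, Sox2, Sox3, Pax6, Nes, Hes5, Cdh2 and Pax3) were all detected, with summed CPM of 1798 to 2079 in the controls and 1852 and 1565 in the EpoR-null libraries. Nes was the largest part of this sum, at 579 to 737 CPM in the controls and 777 and 368 in EpoR-null replicates 1 and 2. The order of the EpoR-null sums rested on Nes, since 5 of the 8 markers were lower in EpoR-null replicate 1 than in replicate 2. A pair of libraries stood apart in markers of other cells. The heterozygote was lowest for the summed markers of neural crest (24.1 CPM against 87.4 to 118 in the other libraries) and somites (7.51 against 24.0 to 59.4). It was also lowest for those of blood (44.1 against 603 to 1692, with Hba-a1 at 0 in every library). The same held for endothelium (10.7 against 107 to 248) and endoderm (0.734 against 4.21 to 5.997). The endoderm sum was mostly Sox17 (0.259 against 3.34 to 5.16), with the other endoderm markers under 1 CPM in every library. Most of the neural crest sum was Ets1 (12.8 against 51.8 to 82.3), and Foxd3 was nearly the same in the heterozygote (4.71) and wild type replicate 2 (4.78). EpoR-null replicate 1 was highest for the sum of the 6 newborn neuron markers (838 CPM against 200 to 423 in the other libraries). It was also highest for the summed markers of somites (59.4 CPM) and blood (1692). Its neural crest sum (118 CPM) was the highest by little, against 110 and 109 in the wild type libraries. Ets1 was lower in EpoR-null replicate 1 (71.3 CPM) than in the wild type libraries (77.7 and 82.3). Epor itself had 57 and 68 reads in the wild type libraries and 11 in the heterozygote, and the EpoR-null libraries held 7 and 19 (2.35, 1.62, 0.475, 0.353 and 0.668 CPM). The heterozygote lay between the EpoR-null libraries, so Epor reads separated the wild type libraries alone from the rest, and which exons the deleted allele lacks is not given in the sources used here.

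The first comparison asked whether the 8 genes differed between EpoR-null and control neural tubes. Trim71 was 3.47-fold lower in the EpoR-null libraries, at 28.8% of the control level, and no other member passed the thresholds of p < 0.001 and FDR < 0.05 in edgeR's exact test. All 8 fitted log2 fold changes were below 0, although those of Igf2bp1 and Igf2bp3 were above 0 once transcript length and GC content were allowed for, and 43.8% of all tested genes were below 0. Across all tested genes, 606 passed the thresholds (4.77%), 488 of them lower in the EpoR-null libraries (3.84%), and the member count is 1 of 8. Both EpoR-null libraries lay below all 3 controls for 4 of the 8 genes (Trim71, Lin28b, Igf2bp2 and Igf2bp3), against 22.1% of tested genes. Nothing was read from these counts, since the members were picked on this contrast. The median log2 fold change was -0.19 for the 8 genes and -0.14 for the 7 genes without Trim71 (range -0.51 to -0.07), against 0.06 for all tested genes.

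**Figure D2:**
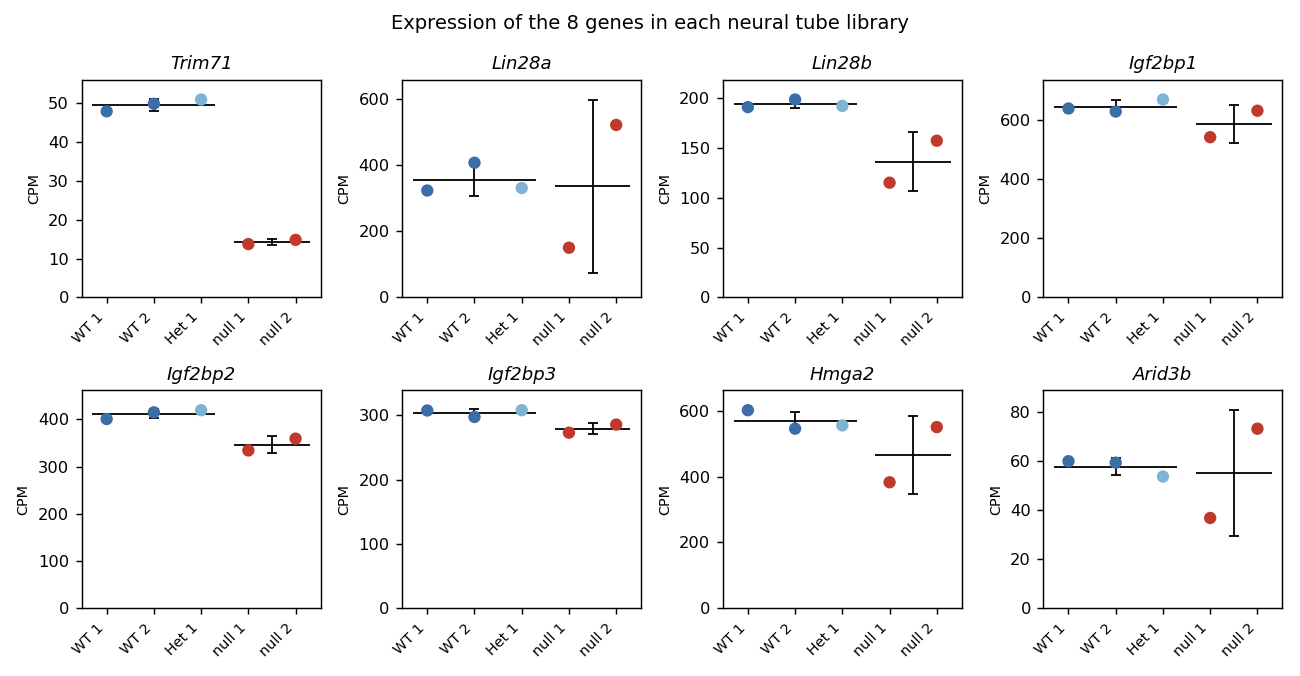
CPM of each of the 8 genes in each of the 5 libraries (blue, wild type; light blue, heterozygote; red, EpoR-null), with a horizontal line for the mean of the 3 controls or the 2 EpoR-null libraries and an error bar of 1 SD. The Trim71 values of the EpoR-null libraries (13.7 and 14.8 CPM) lie far below the controls (48.0 to 51.0 CPM), whereas the Lin28a and Arid3b values of the EpoR-null libraries lie on either side of the controls.

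Trim71 encodes a RING-type ubiquitin ligase with NHL repeats that bind RNA, and lies on the minus strand at chr9:114507133-114564369 (GRCm38). Its reads numbered 1162 and 2097 in wild type replicates 1 and 2 and 1181 in the heterozygote, and those of EpoR-null replicates 1 and 2 numbered 272 and 421. In CPM these were 48.0, 49.9 and 51.0 in the controls (49.6 ± 1.54, SD, n = 3) and 13.7 and 14.8 in the EpoR-null libraries (14.3 ± 0.767, SD, n = 2). The groups did not overlap, and the lowest control was 3.24-fold the highest EpoR-null value. The log2 fold change was -1.80 (SE 0.17), with the lowest p of all tested genes in edgeR's exact test (4.71e-24, FDR 5.98e-20). Leaving out any 1 library moved the fold change only between -1.86 and -1.74. The quasi-likelihood F-test of edgeR gave an FDR of 0.0590 for Trim71. This was the lowest FDR it gave to any gene, and Eif2c2 (Ago2) had the same value. The test thus called 0 genes in all, although 3052 genes had an unadjusted p under 0.05. The exact test put 606 genes past the thresholds and DESeq2 1028. Across all 19 alternatives the FDR of Trim71 ran from 6.68e-37 to 0.154.

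Trim71 varied little between the EpoR-null embryos. Its log2 CPM differed by 0.11 between them, a smaller difference than for 82.3% of tested genes, and among the members only Igf2bp2 and Igf2bp3 differed less. The highest control was 1.06-fold the lowest. The heterozygote was the highest of the 3 controls and exceeded the wild type mean by 0.06 on the log2 scale, in a library that held little blood or endothelial RNA. No test was run against the 1 heterozygote.

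The genes with the pattern most like that of Trim71 were found from the Euclidean distance between log2 CPM profiles centred over the 5 libraries. The nearest of the 12702 other tested genes were Odz4 (a teneurin, distance 0.23), Ptch1 (the Hedgehog receptor, 0.25), Glis3 (a zinc finger factor, 0.30), Prdm10 (0.32) and 4932411E22Rik (0.33). Ptch1 measured 143, 175 and 166 CPM in the controls and 48.1 and 55.5 in the EpoR-null libraries. Odz4 measured 69.3, 64.6 and 70.9 CPM in the controls and 19.6 and 24.0 in the EpoR-null libraries. The log2 fold changes of the 5 genes were -2.14 to -1.58. The lowest was that of 4932411E22Rik, at only 0.904 to 1.11 CPM in the controls and 0.252 and 0.211 in the EpoR-null libraries. Glis3 was low too, at 3.26 to 4.19 CPM in the controls and 0.807 and 1.02 in the EpoR-null libraries. What the likeness rests on was not tested. No member was among the 5 nearest genes, and Lin28b, the member nearest to Trim71, ranked 872nd at a distance of 1.41.

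Lin28a encodes the cytoplasmic LIN28 protein that recruits terminal uridylyl transferases to the let-7 precursor (chr4:134003330-134018841, minus strand). It measured 323 and 407 CPM in the wild type libraries and 331 in the heterozygote. EpoR-null replicates 1 and 2 measured 150 and 522 CPM. The EpoR-null libraries lay on opposite sides of all 3 controls, 1 far below and 1 above, and their mean (336 ± 263, SD, n = 2) was close to that of the controls (354 ± 46.5, SD, n = 3). The log2 fold change was -0.07 (SE 0.51), with a 95% interval from -1.07 to 0.92 and an FDR of 0.969 in edgeR's exact test. A change of up to about 1 log2 unit in either direction was therefore not excluded at this spread. Lin28a had a log2 fold change of 0.56 (FDR 0.0199) when EpoR-null replicate 1 was left out and of -1.24 (FDR 3.35e-07) when EpoR-null replicate 2 was left out, so the sign rested on which EpoR-null embryo was kept.

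Lin28b encodes the paralogue that holds let-7 primary transcripts in the nucleolus (chr10:45376620-45486395, minus strand). It measured 191, 199 and 192 CPM in the controls (194 ± 4.10, SD, n = 3) and 115 and 157 CPM in the EpoR-null libraries (136 ± 29.8, SD, n = 2). Both EpoR-null libraries were below the narrow range of the controls. The log2 fold change of -0.51 (SE 0.18) missed the thresholds in edgeR's exact test (p = 0.00546, FDR 0.0664). DESeq2 gave Lin28b an FDR of 0.0136 without passing the p threshold, and scaling by library size alone gave the exact test an FDR of 0.0100, the 1 setting with all 5 libraries in which a second member passed both thresholds.

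The paralogues were present in unequal amounts. Lin28a contributed 62.8% to 67.2% of the summed Lin28a and Lin28b CPM in the controls, 56.6% in EpoR-null replicate 1 and 76.8% in EpoR-null replicate 2. Their sum was 515, 606 and 523 CPM in wild type 1, wild type 2 and the heterozygote, and 265 and 679 CPM in the EpoR-null libraries. The summed LIN28 message thus fell outside the control range in both EpoR-null embryos, on opposite sides.

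The IGF2 mRNA-binding proteins stabilise and localise mRNAs such as those of Igf2 and Myc, and their genes varied little. Igf2bp1 (chr11:95957163-96005940, minus strand) measured 638, 628 and 668 CPM in the controls and 541 and 631 CPM in the EpoR-null libraries, so that EpoR-null replicate 2 lay inside the control range. Its log2 fold change was -0.14 (SE 0.15, FDR 0.656, edgeR's exact test).

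Igf2bp2 (chr16:22059009-22163299, minus strand) measured 401, 415 and 420 CPM in the controls (412 ± 9.74, SD, n = 3) and 334 and 359 CPM in the EpoR-null libraries (347 ± 17.7, SD, n = 2). The groups did not overlap, but the log2 fold change of -0.25 (SE 0.14) missed the thresholds (FDR 0.303, edgeR's exact test). DESeq2 gave Igf2bp2 an FDR of 0.0236, without passing the p threshold.

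Igf2bp3 (chr6:49085223-49214957, minus strand) measured 308, 298 and 308 CPM in the controls and 273 and 286 CPM in the EpoR-null libraries. Its groups did not overlap either, with a log2 fold change of -0.12 (SE 0.13, FDR 0.657, edgeR's exact test). The sum of the 3 genes was 1340 to 1396 CPM in the controls and 1148 and 1276 CPM in the EpoR-null libraries, and Igf2bp1 made up 46.8% to 47.9% of it in the controls and 47.1% and 49.4% in the EpoR-null libraries. The proportions of the 3 paralogues were thus nearly the same in every library. Igf2bp1 and Igf2bp3 were the nearest pair among the members, at a distance of 0.12.

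Hmga2 encodes a chromatin protein that binds AT-rich DNA and sustains neural progenitor self-renewal (chr10:120361275-120476469, minus strand). It measured 603, 547 and 556 CPM in the controls and 383 and 551 CPM in the EpoR-null libraries. EpoR-null replicate 1 was below every control and EpoR-null replicate 2 was within their range. The log2 fold change was -0.28 (SE 0.20, FDR 0.468, edgeR's exact test).

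Arid3b encodes an ARID-domain DNA-binding protein (chr9:57790353-57836793, minus strand). It measured 60.0, 59.4 and 53.8 CPM in the controls and 36.8 and 73.3 CPM in the EpoR-null libraries. As with Lin28a, 1 EpoR-null library was below and the other above all controls, and the log2 fold change was -0.07 (SE 0.31, FDR 0.947, edgeR's exact test). Arid3b was the member nearest to Lin28a, at a distance of 0.65 and a rank of 104 among 12702 genes.

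Levels of different genes were compared per length of the longest protein-coding transcript. In the controls, Hmga2 was highest at 149 ± 7.88 CPM per kb, followed by Igf2bp2 (106 ± 2.50), Lin28a (101 ± 13.3), Igf2bp1 (77.0 ± 2.52), Igf2bp3 (70.1 ± 1.37), Lin28b (35.9 ± 0.760), Arid3b (13.8 ± 0.831) and Trim71 (5.32 ± 0.165), all SD with n = 3. Igf2bp2 and Lin28a, neighbours in this order, did not differ beyond the spread of Lin28a, and each of the other neighbours had ranges over the controls that did not overlap. Trim71 had the lowest level per length and fell to 1.47 and 1.59 CPM per kb in the EpoR-null libraries.

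A second comparison was between the EpoR-null embryos. All 8 members were lower in EpoR-null replicate 1 than in EpoR-null replicate 2, which held for 49.2% of tested genes. EpoR-null replicate 1 was below the control mean for 8 of 8 members, with a median log2 difference of -0.61, whereas EpoR-null replicate 2 was below it for 6 of 8, with a median of -0.07. The gap between the embryos was 1.80 log2 units for Lin28a, larger than for 96.7% of tested genes, and 0.99 for Arid3b, larger than for 89.3%, against a median gap of 0.33 over all tested genes. Leaving out EpoR-null replicate 2, which leaves 1 EpoR-null library that is assumed to vary like the controls, put 5 members past both thresholds (Trim71, Lin28a, Lin28b, Hmga2 and Arid3b), whereas leaving out EpoR-null replicate 1 left Trim71 alone. Over all tested genes the same fits called 980 genes (7.76%) without EpoR-null replicate 2 and 2296 genes (18.3%) without EpoR-null replicate 1, so the order of the counts was the opposite of that of the members. The count of members past the thresholds thus depended on 1 embryo for 4 of these 5 genes, and Trim71 was the member that did not depend on it.

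Markers of newborn neurons (Tubb3, Dcx, Neurog2, Elavl3, Isl1 and Neurod1), apart from Neurog2, moved with this split. The summed CPM of the 6 markers was 355 and 257 in the wild type libraries and 423 in the heterozygote. It was 838 in EpoR-null replicate 1 and 200 in EpoR-null replicate 2. The library with the highest sum had the lowest Lin28a, and the library with the lowest sum had the highest Lin28a. Wild type replicate 2 was second in Lin28a and next to lowest in the sum. The heterozygote broke the order, exceeding wild type replicate 1 in both the sum (423 against 355 CPM) and Lin28a (331 against 323 CPM). Wild type replicates 1 and 2 differed in the same direction as the EpoR-null replicates, by less, in the sum and in Lin28a (323 and 407 CPM). Igf2bp1, Igf2bp3, Hmga2 and Arid3b were instead higher in wild type replicate 1 than in wild type replicate 2. Dcx, a microtubule protein of migrating neurons, measured 101 CPM in EpoR-null replicate 1 and 4.33 in EpoR-null replicate 2, against 14.7 to 40.9 in the controls, and Tubb3, neuronal tubulin, measured 454 and 104 CPM against 133 to 186. None of the 6 markers passed the thresholds between the groups, and all 6 were higher in EpoR-null replicate 1 than in replicate 2. Neurog2 was so by little (52.1 against 50.1 CPM), with both values inside the control range of 42.1 to 68.8 CPM. EpoR-null replicate 1 was also highest in the summed markers of somites and blood, and by little in that of neural crest. The part of any of these cells in the Lin28a difference was not tested. Trim71, at 13.7 and 14.8 CPM, was nearly the same in the EpoR-null library with the most and the one with the least of the newborn neuron markers.

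**Figure D3:**
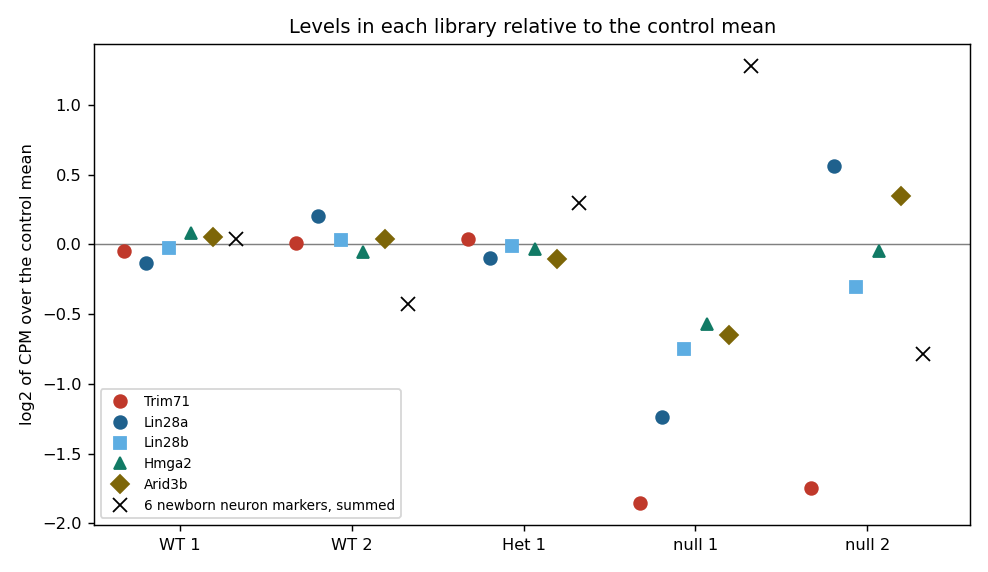
Log2 of the CPM in each library over the mean of the 3 controls, for Trim71, Lin28a, Lin28b, Hmga2 and Arid3b and for the sum of 6 newborn neuron markers (crosses). Trim71 is at about the same low level in both EpoR-null libraries, whereas Lin28a, Arid3b and Hmga2 are low in EpoR-null replicate 1, where the neuron markers are high (838 CPM), and not in EpoR-null replicate 2, where they are low (200 CPM).

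Most genes on a list that marks later stages of neural progenitors were highest in EpoR-null replicate 1. Of the 10 genes on this list (Nfia, Nfib, Nfix, Nr2f1, Nr2f2, Zbtb20, Fabp7, Slc1a3, Sox9 and Pou3f2), 8 were tested and 0 passed the thresholds in either direction. All 8 were higher in EpoR-null replicate 1 than in replicate 2, while 49.2% of all tested genes were lower there. Nr2f2 and Slc1a3 exceeded the highest control by little (109 against 103 CPM and 21.5 against 21.0 CPM). Pou3f2, at 246 CPM in EpoR-null replicate 1, lay inside the control range of 201 to 286 CPM. The median log2 fold change was 0.17. Nfib, a nuclear factor of gliogenic progenitors, measured 1.65, 1.78 and 1.12 CPM in the controls and 6.71 and 1.06 CPM in the EpoR-null libraries (log2 fold change 1.34, SE 0.79, FDR 0.335). Fabp7, the brain lipid-binding protein of radial glia, measured 39.0, 30.7 and 48.5 CPM in the controls and 107 and 36.4 CPM in the EpoR-null libraries (0.87, SE 0.48, FDR 0.292), and Sox9 had a log2 fold change of 0.33 (SE 0.28, FDR 0.537, edgeR's exact test). For both Nfib and Fabp7, 1 EpoR-null library was above all controls and the other was not.

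Another comparison covered the genes that make and remove let-7. Of 18 tested genes, 4 were lower in the EpoR-null libraries and 0 higher (exact test of edgeR), where 3.84% of all tested genes were lower, with a median log2 fold change of -0.23 against 0.06 for all tested genes. Dicer1, which cuts the let-7 hairpin, measured 284, 255 and 283 CPM in the controls and 178 and 168 CPM in the EpoR-null libraries (log2 fold change -0.66, SE 0.14, FDR 3.80e-04). The other genes that fell were Xpo5, the exporter of precursors (-0.62, SE 0.16, FDR 0.00675), Zcchc11, the uridylyl transferase that LIN28A recruits (-0.65, SE 0.17, FDR 0.00473), and Msi1, an RNA-binding protein that works with LIN28 on let-7 precursors (-0.51, FDR 0.00712). The groups did not overlap for these 4 genes. The tool mattered, since the quasi-likelihood F-test called 0 of the 18, and leaving out wild type replicate 1 also left 0. Hnrnpa1 has many near-identical copies in the genome, so its 28.8 to 33.2 CPM are uncertain.

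The list of other let-7 targets held 33 genes, of which 31 were tested and 2 were lower, Dicer1 (also on the list above) and Irs2, the insulin receptor substrate, which measured 34.4, 54.4 and 43.4 CPM in the controls and 13.9 and 19.3 CPM in the EpoR-null libraries (log2 fold change -1.40, SE 0.28, FDR 2.01e-04). The share of all tested genes called lower was 3.84%, so a count of 2 is near it. None was higher, the median was -0.30, and 24 of 31 were below 0, against 43.8% of all tested genes. Cdk6, a G1 kinase, measured 6.89, 6.28 and 6.87 CPM in the controls and 1.82 and 3.90 CPM in the EpoR-null libraries but missed the thresholds (-1.21, SE 0.43, FDR 0.0769, edgeR's exact test). Leaving out either EpoR-null library raised the count of these genes past the thresholds from 2 to 9, while the count over all tested genes rose from 606 to 980 and 2296.

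Some of these targets had the same split as Lin28a, and they were picked out after their values were seen. Nr6a1, a nuclear receptor of early embryos, measured 167, 200 and 168 CPM in the controls and 71.0 and 215 CPM in the EpoR-null libraries. Sall4 measured 103, 125 and 106 CPM in the controls and 60.5 and 137 CPM in the EpoR-null libraries, and Myc measured 40.5, 57.6 and 34.5 CPM and then 22.3 and 72.3 CPM. For these 3 genes EpoR-null replicate 1 was below and EpoR-null replicate 2 above all controls, as for Lin28a and Arid3b. Over the whole list 19 of 31 genes were lower in EpoR-null replicate 1 than in replicate 2. Igf2, whose mRNA the Igf2bp proteins bind, was at 19.3 CPM in the heterozygote and at 173 to 340 CPM in the other libraries, in step with the low mesodermal and endothelial markers of the heterozygote, while the 3 Igf2bp genes were no lower there than in wild type (0.03 to 0.08 log2 units above the wild type mean). The part of these cells in the Igf2 difference was not tested.

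The list of TRIM71 targets and partners held 7 tested genes, of which 1 was lower and 0 higher, against 3.84% of all tested genes lower. This gene was Eif2c2 (Ago2), the argonaute that carries let-7, at 102, 91.8 and 106 CPM in the controls and 31.4 and 19.8 CPM in the EpoR-null libraries (log2 fold change -1.97, SE 0.23, FDR 6.01e-12, edgeR's exact test). The groups did not overlap. Cdkn1a, the cell cycle inhibitor whose mRNA TRIM71 represses, measured 2.77, 3.24 and 2.85 CPM in the controls and 6.66 and 2.78 CPM in the EpoR-null libraries (0.67, SE 0.49, FDR 0.460), so that it was raised in 1 of 2 EpoR-null libraries. E2f7 had a log2 fold change of -0.40 (SE 0.13, FDR 0.0410) and did not pass the p threshold. The median over the 7 genes was -0.26.

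Fold changes in these libraries were ordered by transcript length, and the members are long. When the 12575 tested genes with an annotated transcript were divided by length into 5 classes of nearly equal size, the median log2 fold change was 0.37 in the shortest class and then 0.17, 0.03, -0.12 and -0.37 in the longest. Trim71 (9332 bases), Igf2bp1 (8378 bases) and Lin28b (5402 bases) were in the longest class, where 16.1% of genes were called lower, against 0.159% in the shortest. The longest class also held Odz4, Ptch1, Glis3 and Prdm10 (6772 to 13172 bases), which were among the 5 genes nearest to Trim71. Igf2bp2, Igf2bp3, Hmga2 and Arid3b were in class 4 and Lin28a in class 3. The log2 fold change of Trim71 was 1.43 below the median of its class, while that of Lin28b was 0.14 below it and that of Igf2bp1 was 0.23 above it.

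**Figure D4:**
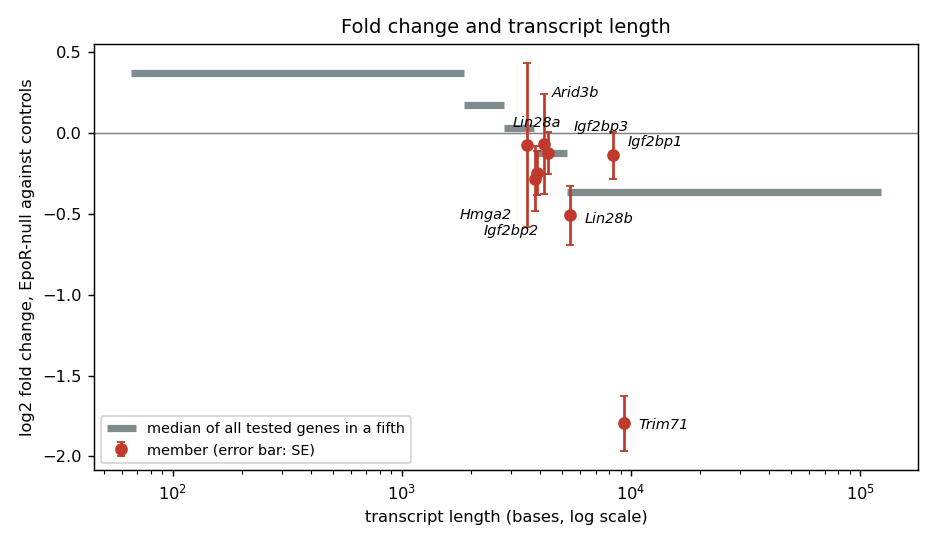
Log2 fold change of each of the 8 genes (red points, error bars of 1 SE) against transcript length in bases on a log axis, with grey bars for the median of all tested genes in each of 5 length classes, each drawn over the length range of its class. Trim71 lies at -1.80 where genes of its class have a median of -0.37, and the other members lie within 0.23 of the medians of their classes.

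When each library's trend on length and GC content was removed with offsets, Trim71 kept a log2 fold change of -1.45 and passed the thresholds in edgeR's likelihood-ratio test (FDR 1.31e-12), as did 159 of 12575 genes (1.26%). The quasi-likelihood F-test with offsets gave Trim71 an FDR of 0.117. Lin28b went from -0.51 to -0.15, Igf2bp2 from -0.25 to -0.23 and Hmga2 from -0.28 to -0.18. Igf2bp1 and Igf2bp3 changed sign, to 0.21 and 0.03, so no direction is given for them. The median over the 8 genes was -0.10 with offsets and -0.06 without Trim71, against -0.01 for all tested genes.

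**Figure D5:**
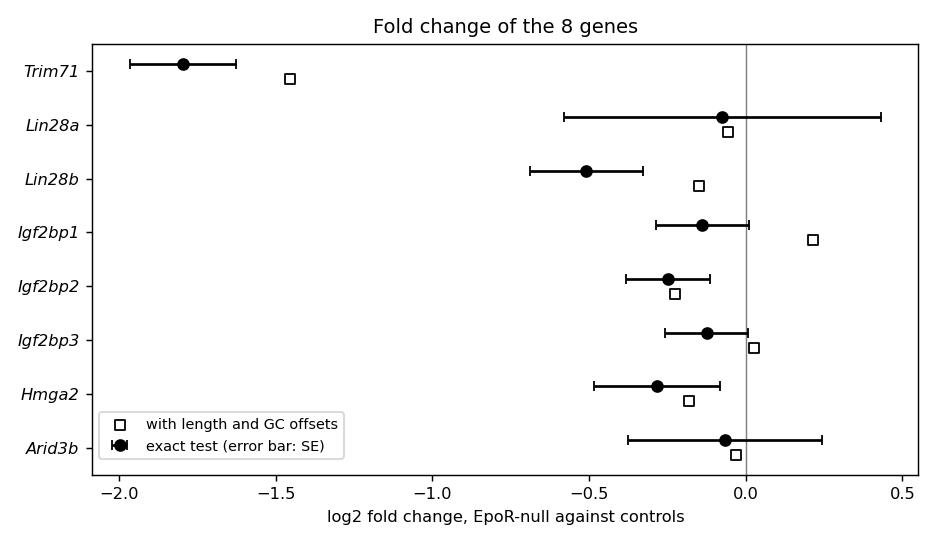
Log2 fold change of the 8 genes, EpoR-null against controls, from the exact test (filled circles, error bars of 1 SE) and with the offsets (open squares). Trim71 stays far below 0 under both, at -1.80 and -1.45, whereas Lin28b moves from -0.51 to -0.15 and Igf2bp1 and Igf2bp3 cross 0.

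With offsets the median log2 fold change went from -0.23 to -0.15 for the let-7 processing genes and from -0.30 to -0.11 for the other let-7 targets. It went from -0.26 to -0.11 for the TRIM71 targets and partners, and from 0.17 to 0.27 for the genes of later progenitors. Cdk6 went from -1.21 to -0.67 and E2f7 from -0.40 to -0.17. With offsets 1 of the 4 let-7 processing genes still passed in the likelihood-ratio test, Msi1 (log2 fold change -0.65), and Dicer1 went from -0.66 to -0.23, Xpo5 from -0.62 to -0.44 and Zcchc11 from -0.65 to -0.31. Eif2c2, which has a transcript of 13800 bases, kept a log2 fold change of -1.51 (FDR 1.72e-11) and Irs2 one of -1.15 (FDR 0.0212).

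The presence of let-7 matches was then set beside the fold changes of the 12160 other tested genes with a 3′ UTR. The median log2 fold change was 0.07 for the 10842 genes without a match, -0.06 for the 1318 genes with at least 1 and -0.17 for the 162 genes with at least 2. Of the 162 genes, 18 were lower (11.1%) and 0 higher, against 3.62% lower among genes without a match. Genes with at least 2 matches also had longer transcripts, with a median of 5981 bases against 3161. With the offsets the medians were 0.02 for genes with at least 2 matches, 0.01 for those with at least 1 and -0.01 for those without a match, so the order by number of matches was reversed and the medians lay close to each other.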

How the data were processed

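PolyA RNA of 5 neural tubes (2 EpoR-null, 1 heterozygote, 2 wild type) was sequenced by the authors. According to the submitters' processing notes reads were trimmed with Trimmomatic 0.32, aligned to mm9 with TopHat2 2.1.0 and counted per gene with HTSeq 0.6.1. The paper's methods name another build and TopHat version. Whether counting used strand, and the annotation, are not given in the sources used here. The deposited values are raw read counts, and reads aligning to several places were not counted. HTSeq summary lines (20.6% to 23.0% of each table) were left out. Groups came from the genotype labels. No pair of libraries was a duplicate.

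The fit used edgeR 4.0.16 (R 4.3.3). TMM scaling, the exact test and the thresholds of p < 0.001 and FDR < 0.05 were those of the paper. Tagwise dispersions, and a filter that kept the 12703 genes with a CPM over 1 in 2 or more libraries, were set here. EpoR-null libraries were compared with the 3 controls, with Benjamini-Hochberg adjustment over these genes. At these depths 3 reads equalled 0.0729 to 0.155 CPM. Standard errors rest on negative binomial information at the tagwise dispersions, and log2 CPM used a prior count of 2. Alternatives were the quasi-likelihood and likelihood-ratio tests, DESeq2 1.42.0, other scalings and filters, thinned counts, each library left out, wild type alone as control, and loess offsets (span 0.5) on transcript length and GC content. Lengths came from GENCODE M21 (99.0% of tested genes). The exact test, DESeq2, the likelihood-ratio test and the quasi-likelihood test with and without the replicate block were tested on simulated data. So were the likelihood-ratio and quasi-likelihood tests with offsets, but not the remaining alternatives.

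The genes named were all 8 members, Epor, list genes past both thresholds (or, up to 3, those with the largest absolute log2 fold change) and the 5 genes nearest to Trim71. Hnrnpa1, Igf2, Nr6a1, Sall4, Myc, Dcx, Tubb3, Neurog2, Nr2f2, Slc1a3, Pou3f2, Nes, Sox17, Ets1 and Foxd3 were named after their values were seen. Members and lists were chosen with earlier results of these data known, so no test over a list was made.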

Additional observations from a re-analysis of the deposited data

How the results depend on the processing

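Of 152 fold changes of the 8 members under 19 alternatives, 144 kept their direction. Signs reversed for Lin28a (-1.24 to 0.56 when 1 library was left out, with 0.04 without wild type replicate 2 and 0.56 without EpoR-null replicate 1), Arid3b (-0.65 to 0.34 when 1 library was left out, with 0.34 without EpoR-null replicate 1), Igf2bp1 (0.21 with length and GC offsets in the likelihood-ratio and quasi-likelihood tests, 0.18 with offsets and the replicate block) and Igf2bp3 (0.0266 with offsets in the likelihood-ratio test and 0.0265 in the quasi-likelihood test). Trim71 kept its direction in all 19 alternatives (-1.86 to -1.45) and passed both thresholds in 16, the exceptions being the quasi-likelihood F-test (FDR 0.0590), the same with offsets (0.117) and with offsets and the replicate block (0.154). The member count, 1 with the exact test, was 0 under these 3 tests, 2 with library size alone, and 1 to 5 when 1 library was left out, with 5 without EpoR-null replicate 2. The median fold change ranged from -0.612 to -0.0676 over the 8 members and from -0.571 to -0.0440 over the 7 without Trim71 when 1 library was left out, the lower end being without EpoR-null replicate 2.

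The count over all genes, 606 with the exact test, was 0 with the quasi-likelihood F-test, 291 with its replicate block, 1028 with DESeq2, 253 against wild type alone, 928 with the FDR threshold alone, 159 with offsets in the likelihood-ratio test, 0 with offsets in the quasi-likelihood F-test, 0 with offsets and the replicate block, and 115 (without wild type replicate 1) to 2296 (without EpoR-null replicate 1) when 1 library was left out. It was 294 without wild type replicate 2, 253 without the heterozygote and 980 without EpoR-null replicate 2. The cause of these shifts was not tested, beyond the fewer libraries that some alternatives hold. Wild type and EpoR-null libraries share replicate numbers 1 and 2, and the sources used here do not say whether a number marks a shared litter, batch or day. The paper calls the controls littermates, and the exact test held no term for litter. The differences between replicates 1 and 2 in the 2 groups had a Pearson r of 0.43 and a Spearman rho of 0.53 across 12703 genes, which are not independent replicates, and under the replicate block Trim71 had a log2 fold change of -1.81 and an FDR of 0.0410. With 2 EpoR-null libraries, the spread of Lin28a, Hmga2 and Arid3b sets the precision, not sequencing depth.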
